A study of Mus musculus with 8 samples.

Results

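The 52 genes described here make or support the machinery that copies DNA. They were taken by symbol from a fixed list that runs from the proteins that mark origins to those that restore chromatin behind the fork. All 52 were found among the 24883 gene entries analysed, and all 52 passed the filter on low counts that left 12879 genes for testing. The symbols were chosen by name and not by their counts, although earlier results of these data were known.

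The series holds 8 RNA libraries of ASZ001, a mouse basal cell carcinoma line grown as an adherent culture, with 2 libraries in each of 4 groups. The 3 treated groups carried a doxycycline-inducible c-Fos vector, were given doxycycline for 24 h and were then kept for 6 h with afatinib at 5 µM, with UO126 at 10 µM or with DMSO. Afatinib blocks the EGF receptor and its relatives, and UO126 blocks the MEK kinases that act further down the same signalling route. The fourth group carried the empty vector and had doxycycline for 24 h, and its labels name no DMSO, so c-Fos and the vehicle cannot be told apart in comparisons with it. The labels say neither if the cells were a pool or a clone nor if both libraries of a group stem from different cultures. The p-values therefore measure no more than how far these libraries differ, part of which may be technical.

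Total counts ranged from 17901974 to 23126048 a library, and levels are given as counts divided by the scaled library size (CPM). Fos itself had 1107 and 1081 CPM with afatinib, 813.1 and 875.4 CPM with UO126, 1163 and 1120 CPM with DMSO, and 40.6 and 50.49 CPM in empty-vector cells. All 13 keratinocyte and basal carcinoma markers were found, with a summed level of 21310 to 25700 CPM a library. The 8 fibroblast markers summed to between 5.065 and 10.61 CPM, with Lum and Thy1 at 0, and the 6 leukocyte markers to between 4.822 and 5.974 CPM, with Tyrobp, Cd3e and Adgre1 at 0. The 5 endothelial markers summed to between 55.85 and 71.81 CPM, with Kdr at 0. Pecam1 made up nearly all of that sum, with group means from 57.0 CPM with afatinib to 69.5 CPM in empty-vector cells.

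A cell prepares its origins before S phase. The origin recognition complex sits on DNA, Cdc6 and Cdt1 bring the ring-shaped MCM helicase to it, and the helicase is switched on later by Cdc45 and the GINS complex. Polymerases, the sliding clamp PCNA and its loader, and a supply of deoxynucleotides then carry the fork forward. Many of these genes are known targets of the E2F transcription factors, which the retinoblastoma protein holds back until growth factor signals raise cyclin activity.

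Promoter sequences from RefSeq (GRCm38.p6) were found for 44 of the 52 genes, and none was found for Mcm4, Gins1, Gins2, Gins4, Prim2, Pole, Rfc2 and Ccne2. The window of each gene's first listed start, from 250 bases before it to 50 after, was searched on both strands for the E2F-type letters TTTCCCGC, TTTGGCGC and TTTCGCGC, which may overlap each other. At least 1 of them lay in 15 of the 44 windows, which is 34.1%, against 3.66% of the windows of 9954 tested genes and 1.91% of 27025 genes in the RefSeq table. CCAAT, searched the same way, lay in 59.1% of the members' windows and in 39.2% of those of the tested genes. The 250 bases before the start are shown for 4 genes with matches before the start, in capitals, and for Tk1 and Uhrf1, which held no match and were among the members most lowered by the inhibitors. All are written 5′ to 3′ on the gene's own strand. The Cdc6 stretch is chr11:98907901-98908150 on the plus strand, that of Orc1 is chr4:108579204-108579453 on the plus strand and that of Mcm5 is chr8:75109259-75109508 on the plus strand. The Mcm6 stretch is chr1:128359706-128359955 on the minus strand, that of Tk1 is chr11:117826015-117826264 on the minus strand and that of Uhrf1 is chr17:56303087-56303336 on the plus strand.
Cdc6: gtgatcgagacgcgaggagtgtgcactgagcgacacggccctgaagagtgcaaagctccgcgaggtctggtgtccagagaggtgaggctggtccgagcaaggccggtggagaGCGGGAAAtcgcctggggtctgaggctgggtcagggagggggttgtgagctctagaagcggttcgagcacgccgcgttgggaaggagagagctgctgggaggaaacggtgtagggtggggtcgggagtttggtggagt
Orc1: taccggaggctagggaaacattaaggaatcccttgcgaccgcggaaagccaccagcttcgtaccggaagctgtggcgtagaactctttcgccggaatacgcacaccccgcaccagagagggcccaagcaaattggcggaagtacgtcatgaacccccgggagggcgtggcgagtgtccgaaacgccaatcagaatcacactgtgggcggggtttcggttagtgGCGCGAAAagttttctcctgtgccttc
Mcm5: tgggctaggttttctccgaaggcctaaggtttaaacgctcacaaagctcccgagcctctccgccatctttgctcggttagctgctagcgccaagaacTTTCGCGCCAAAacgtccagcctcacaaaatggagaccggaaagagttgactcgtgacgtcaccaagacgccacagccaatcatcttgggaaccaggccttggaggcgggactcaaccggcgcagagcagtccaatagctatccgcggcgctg
Mcm6: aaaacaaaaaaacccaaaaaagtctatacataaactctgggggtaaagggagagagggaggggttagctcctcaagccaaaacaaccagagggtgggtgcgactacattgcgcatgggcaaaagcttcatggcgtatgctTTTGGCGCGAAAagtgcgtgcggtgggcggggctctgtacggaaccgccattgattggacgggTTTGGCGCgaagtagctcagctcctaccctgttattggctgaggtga
Tk1: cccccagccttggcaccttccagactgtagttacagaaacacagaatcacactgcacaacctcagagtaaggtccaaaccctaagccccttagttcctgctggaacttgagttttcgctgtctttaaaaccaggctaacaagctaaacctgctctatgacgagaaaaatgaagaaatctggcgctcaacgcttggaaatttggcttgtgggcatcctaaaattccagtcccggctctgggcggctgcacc
Uhrf1: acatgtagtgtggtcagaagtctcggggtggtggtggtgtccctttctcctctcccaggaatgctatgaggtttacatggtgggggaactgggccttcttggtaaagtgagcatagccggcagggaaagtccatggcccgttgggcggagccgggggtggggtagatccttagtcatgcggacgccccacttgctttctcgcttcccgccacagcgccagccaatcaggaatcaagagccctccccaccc
The Cdc6 match starts 138 bases before the gene's start and the Orc1 match 27 bases before it. In Mcm5 and in the more distant pair of Mcm6, matches on opposite strands overlap, so the capitals run on. Cdt1 and Mcm3 also held matches, but after the start. A match is a string of letters and not a site shown to be bound. The 15 members with a match had a median log2 fold change of -0.57 with afatinib against DMSO, and the 29 without a match had -0.50. The ranges, -1.88 to 0.53 with a match and -1.63 to 0.05 without, overlapped. With UO126 against DMSO the medians were -0.45 with a match and -0.36 without. For c-Fos cells with DMSO against empty vector they were 0.29 with a match and 0.18 without. Whether a match goes with the size of a change was not tested.

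With afatinib, 44 of the 52 members were lower than with DMSO and 1 was higher at an adjusted p under 0.05, and 7 were not called. Among all genes tested in that comparison, 21.5% were called lower and 21.2% higher. The median log2 fold change of the members was -0.49, against 0 for all genes tested, and the estimates ran from -1.88 for Cdc6 to 0.53 for E2f2. Both afatinib libraries lay below both DMSO libraries for 49 members, but that share was not computed over all genes, so the count has no background. Because RNA of whole cultures was measured, fewer cells copying DNA and less of these transcripts per cell cannot be told apart. The number called lower ranged from 33 to 46 over the fits that left out 1 library, with 10 calls ended without the second DMSO library and 11 without the second afatinib library. In all, 12 of the 45 calls ended in at least 1 of 15 other fits, those of Ccne2, Gins1, Pole2 and Gins2 and of 8 genes with smaller changes.

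With UO126, 37 members were lower than with DMSO, where 14.7% of all genes were called lower, and the members' median log2 fold change was -0.36. No member was called higher, where 13.9% of all genes were, and neither an unadjusted p under 0.05 in edgeR nor the DESeq2 Wald test gave any member a higher level. Both inhibitor comparisons use the same DMSO libraries, so they are not independent of each other. The inhibitors were compared directly as well. Afatinib gave a lower level than UO126 for 14 members and a higher level for 1, against 7.14% of all genes lower and 7.14% higher, and 37 were not called. Leaving out either afatinib library reduced the 14 to 6, and with only the afatinib and UO126 libraries in the fit it was 8. The calls of Cdc6, Cdt1, Mcm4, Tk1, Orc3, Pole and E2f2 held in every one of the 15 other fits.

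**Figure D1:**
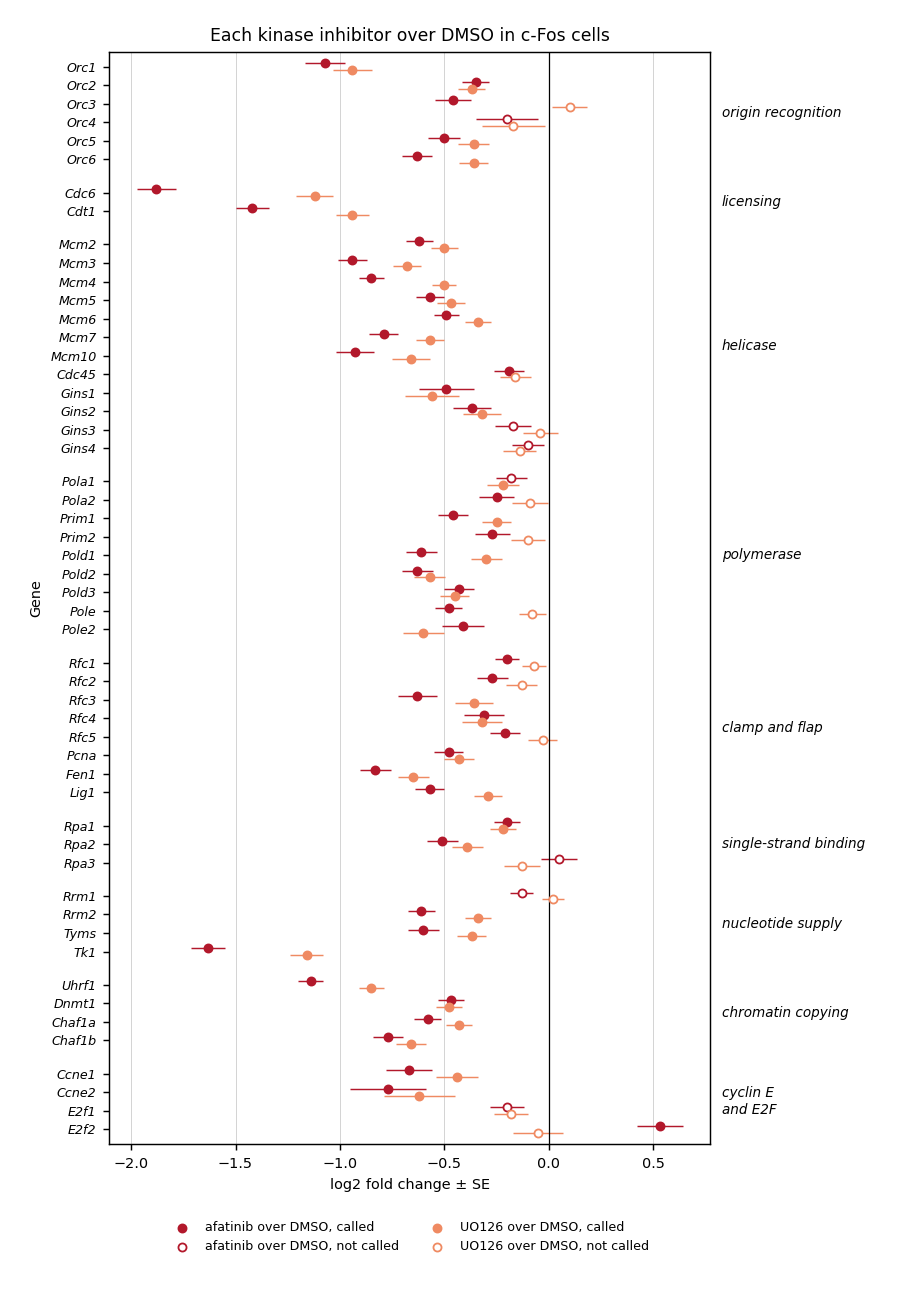
Log2 fold change of each of the 52 genes, with its standard error as a bar, for afatinib over DMSO (dark red) and UO126 over DMSO (orange) in c-Fos cells, with 2 libraries a group. Filled points passed an adjusted p under 0.05 and open points did not; Cdc6 lies farthest left at -1.88 with afatinib and E2f2 alone lies clearly right of 0, at 0.53.

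In c-Fos cells with DMSO, 27 members were higher than in empty-vector cells and 6 were lower, against 21.5% of all genes higher and 20.7% lower, with a median log2 fold change of 0.20. Between 18 and 32 were called higher when 1 library was left out. The 6 called lower were Orc5, Rfc3, Rpa3, Rrm2, Ccne1 and E2f2, and only 2 of them, Rpa3 and Ccne1, remained called without the first empty-vector library. Without the first DMSO library 3 were called lower. Changes were small, and none reached 2-fold in either direction. Few genes did in that comparison, with 494 of all 12879 genes tested called at least 2-fold higher and 512 at least 2-fold lower.

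With afatinib, 32 members were lower than in empty-vector cells and 2 were higher, against 23.4% of all genes lower and 21.7% higher, and the median was -0.26. With UO126, 24 were lower and 2 were higher than in empty-vector cells, against 19.4% of all genes lower and 18.3% higher, and the median was -0.15. Gins3 and Rfc5 were the members called higher in both. The afatinib calls of these 2 genes were near the threshold, and neither was called without the first afatinib library or without the second empty-vector library. With UO126, Gins3 was not called without the second empty-vector library. Over the 4 groups, 37 of the 52 members had their lowest mean CPM with afatinib, 10 with UO126, 0 with DMSO and 5 in empty-vector cells. Among all tested genes the lowest mean was with afatinib for 27.9%, with UO126 for 15.4%, with DMSO for 28.4% and in empty-vector cells for 28.3%.

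**Figure D2:**
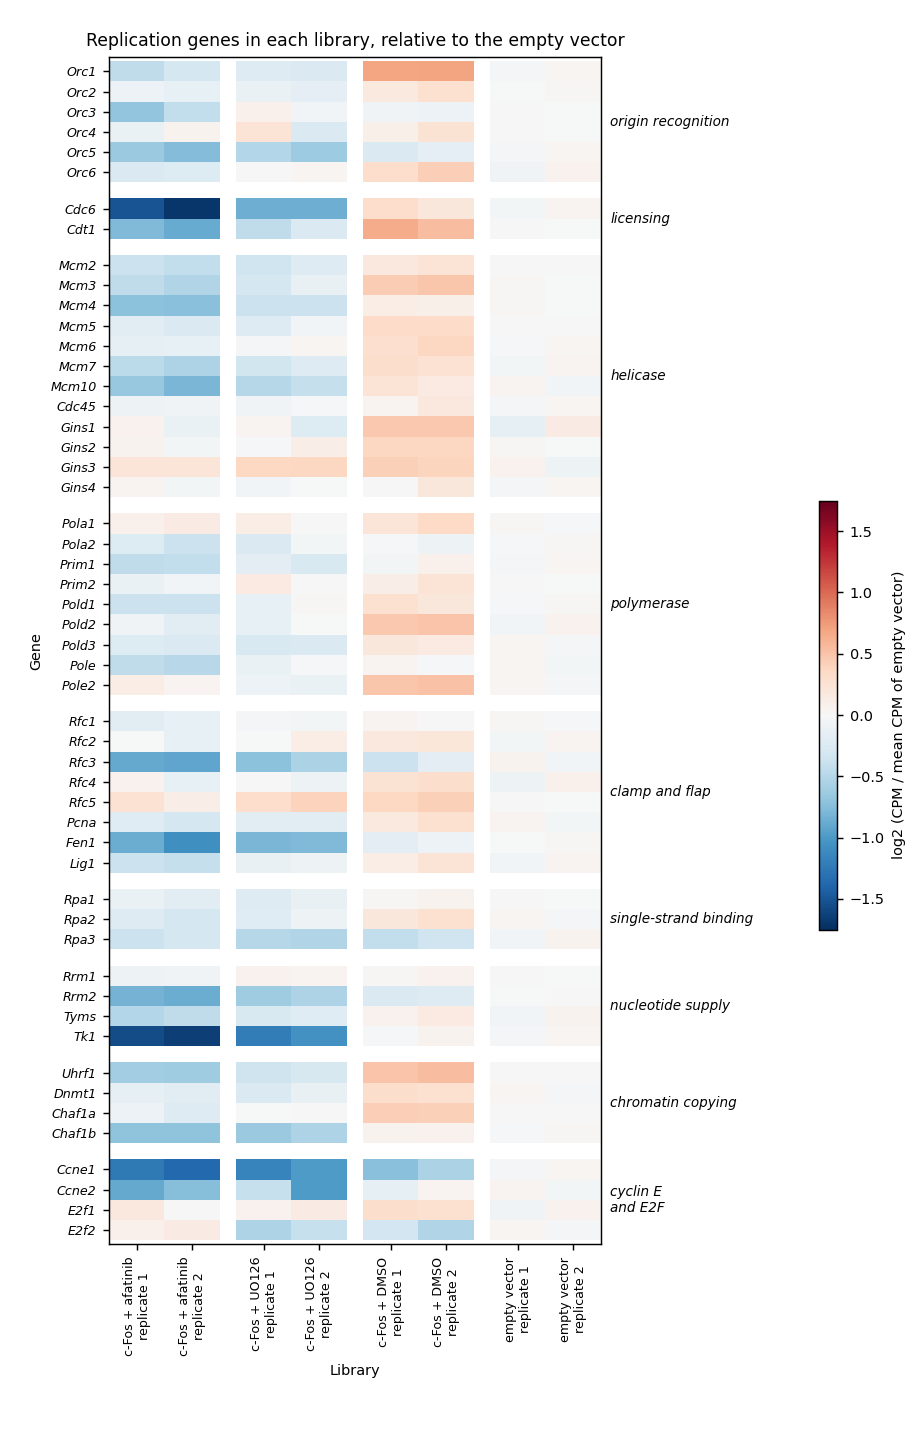
Level of each gene in each of the 8 libraries as the log2 ratio of its CPM to the mean CPM of the 2 empty-vector libraries, with red above that mean and blue below it. Genes run down the page by role and libraries run from afatinib, UO126 and DMSO to empty vector; Cdc6, Tk1 and Ccne1 are darkest blue with afatinib, and most genes are red with DMSO.

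Origin recognition was led by Orc1, the subunit whose level is known to move with the cell cycle. Orc1 had 10.4 and 11.5 CPM with afatinib, 12.1 and 11.9 CPM with UO126, 23 and 23.1 CPM with DMSO, and 13.9 and 14.5 CPM in empty-vector cells. The DMSO libraries stood above all others, and both inhibitor groups stood below the empty-vector cells without overlap, although only the afatinib difference there was called (-0.37 ± 0.098, adjusted p = 0.0071, against -0.24 ± 0.096 and adjusted p = 0.064 for UO126). The afatinib call ended without the first afatinib library and without the second empty-vector library. Its log2 fold change was -1.07 ± 0.095 (SE) with afatinib against DMSO (adjusted p = 1.4e-06) and -0.94 ± 0.094 with UO126 against DMSO (adjusted p = 9.9e-06). In c-Fos cells with DMSO it was 0.70 ± 0.092 above the empty vector (adjusted p = 4.4e-05), the largest rise among the 52. Exons of Orc1 share 10.8% of their bases with Gm12743 on the other strand, and reads of such partners cannot be told apart in a library that does not mark strand.

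Orc6, the smallest subunit of the complex, had 58.0 and 58.4 CPM with afatinib, 69.5 and 71.0 CPM with UO126, 86.7 and 93.5 CPM with DMSO, and 65.7 and 72.6 CPM in empty-vector cells. It fell by 0.63 on the log2 scale with afatinib (adjusted p = 1.3e-05) and by 0.36 with UO126 (adjusted p = 0.0021), and rose by 0.38 with c-Fos (adjusted p = 0.00077). Orc3 differed between the inhibitors. It had 50.1 and 60.1 CPM with afatinib, 86.1 and 77.4 CPM with UO126, 76.7 and 75.3 CPM with DMSO, and 81.4 and 80.1 CPM in empty-vector cells. Only the afatinib libraries were low, and the direct difference of afatinib from UO126 was -0.57 ± 0.086 (adjusted p = 0.00081). Orc5 had 38.4 and 35.8 CPM with afatinib, 42.5 and 39.0 CPM with UO126, 50.8 and 53.6 CPM with DMSO, and 59.3 and 61.7 CPM in empty-vector cells, so its highest level was without c-Fos. Its c-Fos change of -0.21 was called (adjusted p = 0.035), but the call ended when any 1 of the 4 libraries compared was left out.

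Orc2 fell with afatinib (-0.35 ± 0.066, adjusted p = 0.00073) and with UO126 (-0.37 ± 0.066, adjusted p = 0.00093). Orc4 had the smallest estimate of the complex for afatinib against DMSO, -0.20, and the largest standard error, 0.15, with 54.5 and 61.6 CPM with afatinib, 69.7 and 49.5 CPM with UO126, 63.5 and 70.3 CPM with DMSO, and 59.3 and 58.7 CPM in empty-vector cells. It passed no test in the fit to all libraries. Without the first UO126 library its UO126 level was called below DMSO (adjusted p = 0.00084). Against empty-vector cells the UO126 difference was called at -0.23 without the first UO126 library (adjusted p = 0.041) and at 0.27 without the second (adjusted p = 0.018). Per length, Orc1 was the scarcest of the complex in all groups, at 7.69 CPM per kb of transcript in DMSO cells, against 54.8 CPM per kb for Orc6. The subunits thus differed 7.13-fold in level in DMSO cells, and 9.67-fold with afatinib.

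Cdc6 and Cdt1, the loaders of the MCM helicase, were among the members most lowered by both inhibitors. Cdc6, whose protein opens the way for loading, had 12.4 and 10.9 CPM with afatinib, 19.7 and 19.6 CPM with UO126, 44.5 and 40.9 CPM with DMSO, and 34.3 and 36.6 CPM in empty-vector cells. No 2 of the 4 groups overlapped. The log2 fold change with afatinib against DMSO was -1.88 ± 0.094 (adjusted p = 9.2e-09), a level 0.27-fold that of DMSO cells. With UO126 against DMSO it was -1.12 ± 0.088 (adjusted p = 1.1e-06), and the direct difference of afatinib from UO126 was -0.76 ± 0.098 (adjusted p = 0.00028). The rise with c-Fos was small, at 0.27 ± 0.084 (adjusted p = 0.020), and the call ended without the first DMSO library or the first empty-vector library. Against empty-vector cells, afatinib left Cdc6 at -1.61 ± 0.094 (adjusted p = 1.4e-08).

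Cdt1, the partner of Cdc6 that carries MCM to the origin, had 42.7 and 39.7 CPM with afatinib, 53.7 and 61.4 CPM with UO126, 114 and 106 CPM with DMSO, and 73.1 and 72.6 CPM in empty-vector cells. Again no groups overlapped. It fell by 1.42 on the log2 scale with afatinib (SE 0.079, adjusted p = 2.1e-08) and by 0.94 with UO126 (SE 0.077, adjusted p = 1.8e-06). Its rise with c-Fos was 0.60 ± 0.076 (adjusted p = 3.4e-05), and the inhibitors differed by -0.48 ± 0.080, with afatinib the lower (adjusted p = 0.0016). Summed, Cdc6 and Cdt1 stood at 50.8% and 46.7% of the empty-vector mean with afatinib, 67.8% and 74.7% with UO126, and 146% and 136% with DMSO. That was the widest span of the 9 roles, although this role holds only 2 genes and each sum weighs its most abundant genes most.

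**Figure D3:**
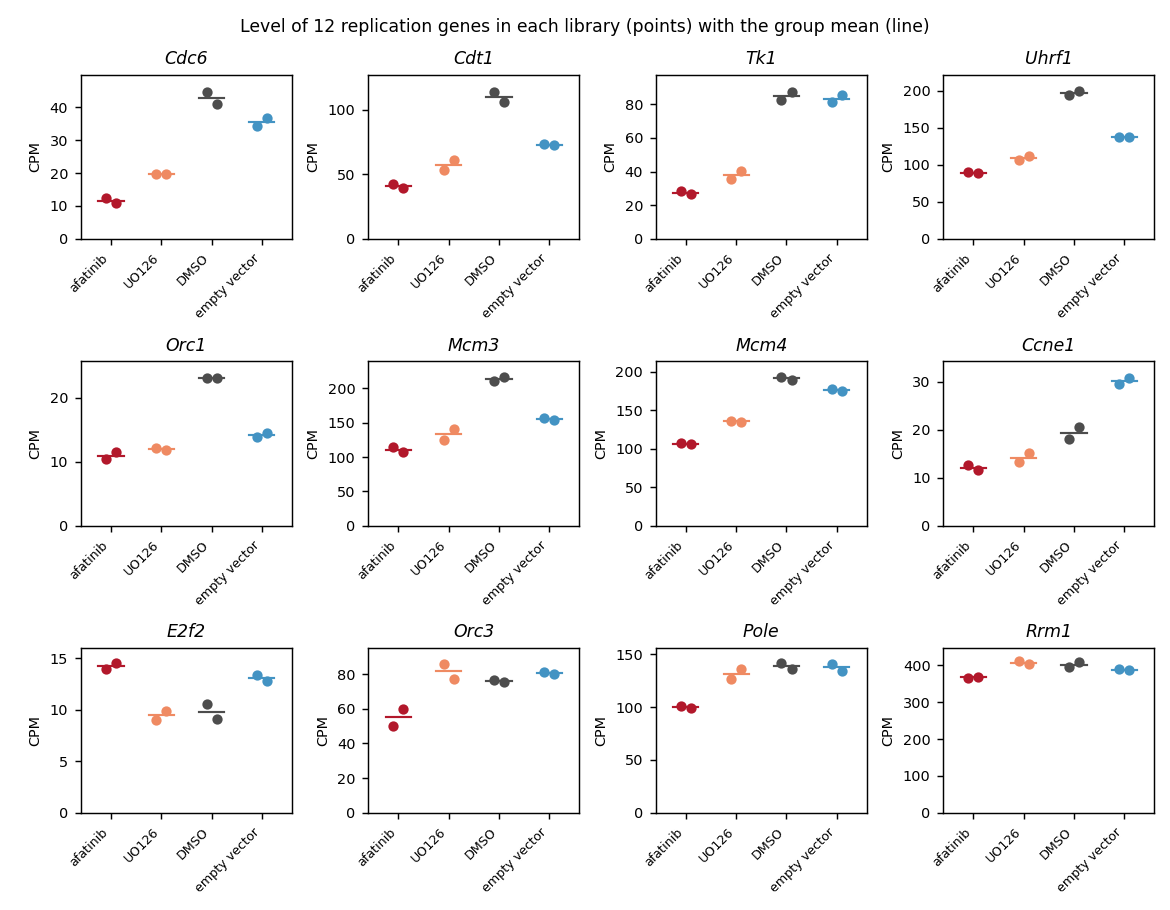
CPM in each library (points) and group mean (line) for 12 of the 52 genes, with groups from left to right afatinib, UO126, DMSO and empty vector; each vertical axis starts at 0. In Cdc6 and Cdt1 the afatinib libraries are lowest and the DMSO libraries highest, E2f2 is high with afatinib and in empty-vector cells, and Rrm1 is nearly level at 366 to 411 CPM.

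The 6 subunits of the MCM2-7 ring fell together. With afatinib all 6 were called lower than with DMSO, from -0.49 for Mcm6 to -0.94 for Mcm3, where 21.5% of all genes were. With UO126 all 6 were called lower, from -0.34 for Mcm6 to -0.68 for Mcm3, where 14.7% of all genes were. All 12 of these calls held in every one of the 15 other fits. With c-Fos 5 of the 6 were higher than in empty-vector cells, against 21.5% of all genes. Mcm4, at 0.12 ± 0.058 (adjusted p = 0.12), was the one not called. The call of Mcm2 there, at 0.21, ended without the second DMSO library and without either empty-vector library. Per length the 6 transcripts lay within 1.45-fold of each other in DMSO cells, from 50.2 CPM per kb for Mcm7 to 72.8 CPM per kb for Mcm2. With afatinib they lay between 29.0 CPM per kb for Mcm7 and 48.8 CPM per kb for Mcm5, a 1.68-fold span. Other complexes spanned more in DMSO cells, at 2.07-fold for RPA, the single-strand binder, and 2.15-fold for RFC, the clamp loader. The span was 4.37-fold for GINS, 5.24-fold for polymerase alpha with primase and 7.13-fold for the origin recognition complex.

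Mcm3 had 114 and 108 CPM with afatinib, 125 and 141 CPM with UO126, 211 and 216 CPM with DMSO, and 157 and 154 CPM in empty-vector cells. The DMSO libraries were highest, the afatinib libraries lowest, and no groups overlapped. Its change was -0.94 ± 0.069 with afatinib (adjusted p = 2.4e-07), -0.68 ± 0.068 with UO126 (adjusted p = 1.1e-05) and 0.46 ± 0.068 with c-Fos (adjusted p = 0.00012). Mcm4 had 107 and 106 CPM with afatinib, 136 and 135 CPM with UO126, 193 and 189 CPM with DMSO, and 178 and 175 CPM in empty-vector cells. It sank further below the empty vector than any other ring subunit, by -0.73 ± 0.059 with afatinib (adjusted p = 3.4e-07) and by -0.38 ± 0.058 with UO126 (adjusted p = 0.00018). Mcm6 had the smallest change of the ring with either inhibitor against DMSO, and its afatinib level against empty vector, -0.15 ± 0.061, was not called (adjusted p = 0.053).

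Mcm10, which acts when the helicase is switched on, had 18 and 16.4 CPM with afatinib, 20.1 and 21.4 CPM with UO126, 33.7 and 31.8 CPM with DMSO, and 29.6 and 27.4 CPM in empty-vector cells. It fell by 0.93 with afatinib (adjusted p = 3.3e-06) and by 0.66 with UO126 (adjusted p = 0.00013), while the c-Fos difference of 0.20 was not called (adjusted p = 0.080). Cdc45 and the GINS subunits complete the active helicase. Cdc45 fell by 0.19 with afatinib (adjusted p = 0.046), a call that ended in 10 of the 15 other fits, and its UO126 difference of -0.16 was not called. Gins1 and Gins2 were called lower with both inhibitors, at -0.49 and -0.37 with afatinib and -0.56 and -0.32 with UO126. Leaving out the second afatinib library ended both afatinib calls, the second DMSO library that of Gins1, and either DMSO library or the first UO126 library the UO126 call of Gins2.

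Gins4 was the helicase member with the smallest estimate for afatinib against DMSO, -0.10, and had 61.1 and 56.9 CPM with afatinib, 56.4 and 58.5 CPM with UO126, 59.1 and 67.6 CPM with DMSO, and 57.7 and 60.2 CPM in empty-vector cells. The UO126 libraries lay just below the DMSO ones, every other pair of groups overlapped, and it passed no test. Gins3 had 22.9 and 22.7 CPM with afatinib, 25.1 and 25.2 CPM with UO126, 26.0 and 25.5 CPM with DMSO, and 20.6 and 18.4 CPM in empty-vector cells. All 6 c-Fos libraries lay above the empty-vector ones. It was higher with c-Fos (0.40 ± 0.088, adjusted p = 0.0025), and its differences of -0.17 with afatinib and -0.04 with UO126 from DMSO were not called. Counts of Gins2 are uncertain, since 67.3% of its exonic bases overlap Gse1 on the other strand.

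The replicative polymerases were called lower than with DMSO in 8 of 9 cases with afatinib, where 21.5% of all genes were, and in 6 of 9 with UO126, where 14.7% were. With c-Fos 4 of 9 were higher, against 21.5% of all genes. The afatinib count was 5 without the second afatinib library, and the c-Fos count was 2 without the second empty-vector library. Pold2, an accessory subunit of polymerase delta, had 111 and 102 CPM with afatinib, 106 and 116 CPM with UO126, 162 and 165 CPM with DMSO, and 112 and 123 CPM in empty-vector cells. The DMSO libraries were highest. Its change was -0.63 ± 0.074 with afatinib (adjusted p = 1.7e-05), -0.57 ± 0.074 with UO126 (adjusted p = 9.6e-05) and 0.48 ± 0.073 with c-Fos (adjusted p = 0.00015). Pold1, the catalytic subunit of polymerase delta, had 43.1 and 43.1 CPM with afatinib, 50.2 and 56.4 CPM with UO126, 67.9 and 63.7 CPM with DMSO, and 54.8 and 56.5 CPM in empty-vector cells. It fell by 0.61 with afatinib (adjusted p = 2.6e-05) and by 0.30 with UO126 (adjusted p = 0.0079), the UO126 call ending without the first DMSO or the first UO126 library. Pold3, another accessory subunit, fell by 0.43 with afatinib (adjusted p = 0.00029) and by 0.45 with UO126 (adjusted p = 0.00041).

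The 2 subunits of polymerase epsilon among the members gave unlike estimates. This polymerase copies the leading strand. Pole, the catalytic subunit, had 101 and 98.8 CPM with afatinib, 127 and 136 CPM with UO126, 142 and 136 CPM with DMSO, and 141 and 134 CPM in empty-vector cells. The afatinib libraries were low and the other 3 groups lay close together. Pole fell by 0.48 with afatinib (adjusted p = 6.4e-05), its UO126 difference of -0.08 was not called (adjusted p = 0.38), and afatinib lay -0.40 ± 0.065 from UO126 (adjusted p = 0.0015). Pole2, the accessory subunit, had 11.4 and 10.8 CPM with afatinib, 9.73 and 9.64 CPM with UO126, 14.6 and 14.8 CPM with DMSO, and 10.6 and 10.2 CPM in empty-vector cells. Here the DMSO libraries were high and UO126 gave the lower estimate, -0.60 ± 0.10 (adjusted p = 0.00066), against -0.41 ± 0.10 with afatinib (adjusted p = 0.0051), although the inhibitors did not differ by the direct test (0.20 ± 0.10, adjusted p = 0.24). The afatinib call of Pole2 ended without the second afatinib library. Orc3 and Pole were singled out after their values were seen. They were the members called lower than DMSO with afatinib only that also passed the direct test between the inhibitors.

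Polymerase alpha and primase lay the first stretch of each new strand. Pola1 had 46.1 and 47.7 CPM with afatinib, 47.2 and 43.4 CPM with UO126, 50.7 and 55.2 CPM with DMSO, and 43.9 and 42.6 CPM in empty-vector cells. Its afatinib difference of -0.18 was not called (adjusted p = 0.076), and the UO126 call at -0.22 (adjusted p = 0.040) ended in 11 of the 15 other fits. Prim1, the primase catalytic subunit, fell by 0.46 with afatinib (adjusted p = 0.00018) and by 0.25 with UO126 (adjusted p = 0.018), where leaving out the second DMSO or the second UO126 library ended the call. Pola2 and Prim2 were called lower with afatinib only, at -0.25 (adjusted p = 0.030) and -0.27 (adjusted p = 0.019), and both calls ended without either afatinib library. The direct test of afatinib against UO126 called neither of them.

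The clamp, its loader and the enzymes that join the lagging strand were lower with afatinib in 8 of 8 cases and with UO126 in 5 of 8, where 21.5% and 14.7% of all genes were called lower. The afatinib count was 4 without the second afatinib or the second DMSO library and 5 without the first DMSO library, and the UO126 count was 2 without the second DMSO library. Pcna, the sliding clamp, had 67.5 and 63.3 CPM with afatinib, 67.8 and 67.9 CPM with UO126, 87.7 and 95.1 CPM with DMSO, and 81.0 and 75.3 CPM in empty-vector cells. It fell by 0.48 with afatinib (adjusted p = 0.00012) and by 0.43 with UO126 (adjusted p = 0.00061), and rose by 0.23 with c-Fos (adjusted p = 0.020), a call that ended without the second DMSO or the second empty-vector library. Fen1, which trims the flap of each lagging-strand fragment, had 74.0 and 64.2 CPM with afatinib, 77.4 and 79.4 CPM with UO126, 119 and 126 CPM with DMSO, and 134 and 137 CPM in empty-vector cells. Both inhibitor groups were well below both others. Fen1 fell by 0.83 with afatinib (adjusted p = 1.5e-06) and by 0.65 with UO126 (adjusted p = 3.4e-05), while its c-Fos difference of -0.14 was not called (adjusted p = 0.15). The antisense gene Gm10143 covers 78.8% of the exonic bases of Fen1, so these counts may hold reads of both. Lig1, the ligase that seals the fragments, fell by 0.57 with afatinib (adjusted p = 2e-05) and by 0.29 with UO126 (adjusted p = 0.0063), the UO126 call ending without the second DMSO library.

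All 5 subunits of the clamp loader RFC were called lower with afatinib, and 2 of 5 with UO126, against 21.5% and 14.7% of all genes. The direct test between the inhibitors called none of them, where 7.14% of all genes were called in each direction. Without the second afatinib library or without the second DMSO library the afatinib calls numbered 1, that of Rfc3, and without the first DMSO library 2. The UO126 calls numbered 0 without the second DMSO library, and 1 without the first DMSO or the second UO126 library. Rfc3 had 24.7 and 24.1 CPM with afatinib, 27.9 and 31.2 CPM with UO126, 35.4 and 40.3 CPM with DMSO, and 48.0 and 43.8 CPM in empty-vector cells, the highest level being in empty-vector cells. It fell by 0.63 with afatinib (adjusted p = 0.00011) and by 0.36 with UO126 (adjusted p = 0.0098), and was -0.28 ± 0.089 with c-Fos (adjusted p = 0.022). The UO126 call ended without the second DMSO library and the c-Fos call without the first DMSO or the first empty-vector library. Rfc1, the large subunit, had 239 and 246 CPM with afatinib, 266 and 264 CPM with UO126, 281 and 275 CPM with DMSO, and 278 and 269 CPM in empty-vector cells. Its afatinib change was the smallest called in this role, -0.20 ± 0.057 (adjusted p = 0.014), and it was not called without any 1 of the afatinib and DMSO libraries. Rfc5 had 62.5 and 56.4 CPM with afatinib, 65.5 and 68.8 CPM with UO126, 67.2 and 69.9 CPM with DMSO, and 52.6 and 51.8 CPM in empty-vector cells, so all c-Fos libraries exceeded the empty-vector ones. Rfc5 rose by 0.39 ± 0.072 with c-Fos (adjusted p = 7e-04), and with UO126 it stood 0.36 ± 0.072 above the empty vector (adjusted p = 0.0013), calls that held in all 15 other fits.

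Of the 3 subunits of RPA, which coats single-stranded DNA, Rpa1 and Rpa2 were called lower with either inhibitor and Rpa3 was not called. Of all genes, 21.5% were called lower with afatinib and 14.7% with UO126. Rpa2 had 44.1 and 41.8 CPM with afatinib, 44.5 and 48.6 CPM with UO126, 59.1 and 62.8 CPM with DMSO, and 52.9 and 50.4 CPM in empty-vector cells. It fell by 0.51 with afatinib (adjusted p = 0.00013) and by 0.39 with UO126 (adjusted p = 0.0017). The Rpa1 changes, -0.20 ± 0.062 with afatinib and -0.22 ± 0.062 with UO126, were smaller, and both calls ended without either DMSO library. The afatinib call also ended without either afatinib or the second empty-vector library, and the UO126 call without the first UO126 library. Rpa3, the smallest subunit, had 24.5 and 25.8 CPM with afatinib, 22.5 and 22.1 CPM with UO126, 23.7 and 25.0 CPM with DMSO, and 30.6 and 33.3 CPM in empty-vector cells. All 6 c-Fos libraries lay below the empty-vector ones. Its change was -0.39 ± 0.084 with c-Fos (adjusted p = 0.0022), and its difference from DMSO was 0.05 with afatinib and -0.13 with UO126, neither called.

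Nucleotide supply held members with very unlike changes. Tk1, the salvage kinase for thymidine, had 28.3 and 26.6 CPM with afatinib, 35.7 and 40.2 CPM with UO126, 82.3 and 87.4 CPM with DMSO, and 81.1 and 85.7 CPM in empty-vector cells. The DMSO and empty-vector libraries overlapped, and every inhibitor library lay below all of them. Its log2 fold change was -1.63 ± 0.081 with afatinib (adjusted p = 8.3e-09), -1.16 ± 0.078 with UO126 (adjusted p = 2.8e-07) and 0.02 ± 0.075 with c-Fos (adjusted p = 0.82), and afatinib lay -0.47 ± 0.082 from UO126 (adjusted p = 0.0025). Rrm1, the large subunit of ribonucleotide reductase, hardly moved, with 366 and 368 CPM with afatinib, 411 and 403 CPM with UO126, 396 and 408 CPM with DMSO, and 391 and 386 CPM in empty-vector cells. It passed no test, its largest difference from DMSO being -0.13 ± 0.055 with afatinib (adjusted p = 0.068).

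Rrm2, the small subunit that sets the enzyme's activity in S phase, had 80.5 and 78.1 CPM with afatinib, 92.5 and 98.1 CPM with UO126, 120 and 122 CPM with DMSO, and 142 and 143 CPM in empty-vector cells. No groups overlapped and the order was afatinib, UO126, DMSO, empty vector from low to high. It fell by 0.61 with afatinib (adjusted p = 5.8e-06) and by 0.34 with UO126 (adjusted p = 0.0012), and was -0.24 ± 0.062 with c-Fos (adjusted p = 0.0070), a call that ended without the first DMSO or the first empty-vector library. Against empty-vector cells it stood at -0.85 ± 0.063 with afatinib (adjusted p = 1.4e-07). Tyms, which makes thymidylate, fell by 0.60 with afatinib (adjusted p = 2.1e-05) and by 0.37 with UO126 (adjusted p = 0.0018), and the c-Fos difference of 0.12 was not called. A pseudogene, Tyms-ps, has its own entry, and reads may have been split between the 2. Summed, the 4 genes of nucleotide supply stood at 76.5% and 76.5% of the empty-vector mean with afatinib, 87.2% and 87.8% with UO126, and 98.1% and 102% with DMSO. Rrm1 made up most of each sum, with 366 and 368 CPM of 522.9 and 523.1 CPM with afatinib. The sum therefore hides the larger differences of Tk1 and Rrm2 from empty-vector cells.

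The genes that restore methylation and nucleosomes behind the fork were lower with either inhibitor in 4 of 4 cases. Among all genes, 21.5% were called lower with afatinib and 14.7% with UO126. Uhrf1, which brings the methyltransferase to newly copied DNA, had 89.8 and 88.9 CPM with afatinib, 107 and 112 CPM with UO126, 194 and 200 CPM with DMSO, and 138 and 137 CPM in empty-vector cells. The groups did not overlap, with DMSO highest and afatinib lowest. It fell by 1.14 with afatinib (adjusted p = 1.7e-08) and by 0.85 with UO126 (adjusted p = 4.9e-07), and rose by 0.52 with c-Fos (adjusted p = 1.3e-05). Dnmt1, that methyltransferase, had 273 and 264 CPM with afatinib, 255 and 276 CPM with UO126, 374 and 368 CPM with DMSO, and 311 and 295 CPM in empty-vector cells. The inhibitor groups overlapped, and the fall was -0.47 ± 0.062 with afatinib (adjusted p = 4.8e-05) and -0.48 ± 0.062 with UO126 (adjusted p = 8.6e-05).

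The chromatin assembly factor deposits histones on new DNA. Its small subunit Chaf1b had 30.3 and 30.2 CPM with afatinib, 31.4 and 33.9 CPM with UO126, 51.3 and 51.7 CPM with DMSO, and 48.7 and 49.8 CPM in empty-vector cells. It fell by 0.77 with afatinib (adjusted p = 2.7e-06) and by 0.66 with UO126 (adjusted p = 2.5e-05), and its c-Fos difference of 0.06 was not called. The large subunit Chaf1a fell by 0.58 with afatinib (adjusted p = 9.7e-06) and by 0.43 with UO126 (adjusted p = 0.00029), and rose by 0.42 with c-Fos (adjusted p = 0.00017). Of its exonic bases 52.5% overlap Ubxn6 on the other strand, and smaller overlaps of this kind, between 10.7% and 29.8% of exonic bases, touch Orc2, Ccne2, Rfc2, Rfc4 and Rfc5.

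**Figure D4:**
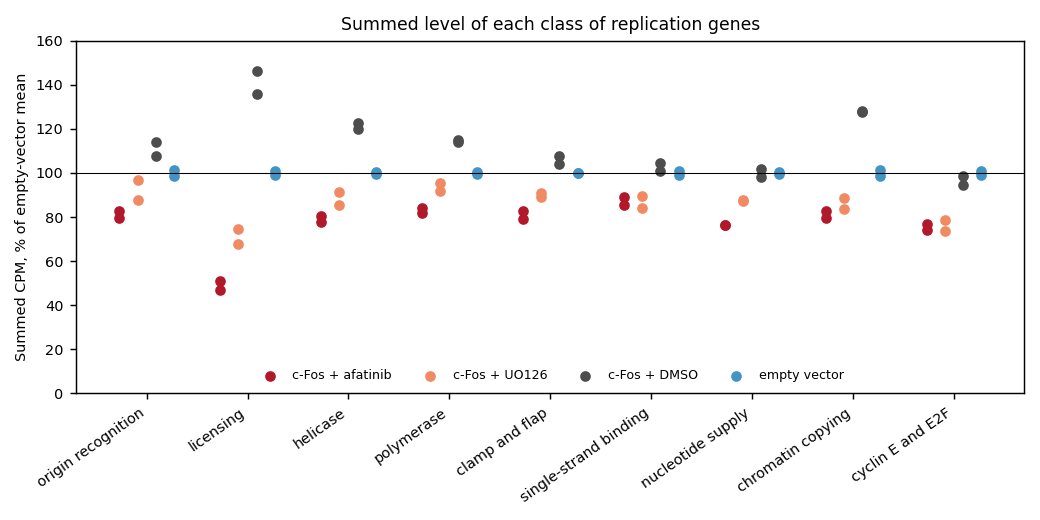
Summed CPM of the genes of each role in each library, as a percentage of the mean of the 2 empty-vector libraries (line at 100), with libraries grouped from left to right as afatinib, UO126, DMSO and empty vector. Licensing, a role of 2 genes, spans most, from 46.7% with afatinib to 146% with DMSO. In every role both afatinib libraries lie below both DMSO libraries, and abundant genes weigh most in each sum.

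Cyclin E and the E2F genes, which act upstream of S phase, did not move as a block. Ccne1, the cyclin that drives entry into S phase, had 12.6 and 11.6 CPM with afatinib, 13.3 and 15.1 CPM with UO126, 18 and 20.5 CPM with DMSO, and 29.4 and 30.7 CPM in empty-vector cells. It was lower in c-Fos cells with DMSO than in empty-vector cells, and lower again in c-Fos cells with each inhibitor. The change was -0.67 ± 0.11 with afatinib (adjusted p = 0.00024), -0.44 ± 0.10 with UO126 (adjusted p = 0.0071, ending without the second DMSO library) and -0.65 ± 0.098 with c-Fos (adjusted p = 0.00015). Against empty-vector cells Ccne1 with afatinib stood at -1.31 ± 0.10 (adjusted p = 2.2e-07). Ccne2, its relative, had 25.8 and 28.8 CPM with afatinib, 36.4 and 24.2 CPM with UO126, 43.4 and 49.8 CPM with DMSO, and 49.7 and 46.6 CPM in empty-vector cells. The 2 UO126 libraries were far apart. Its calls of -0.77 ± 0.18 with afatinib (adjusted p = 0.0095) and -0.62 ± 0.17 with UO126 (adjusted p = 0.033) ended without the second DMSO library, the afatinib call also without the first afatinib library and the UO126 call also without the first DMSO or either empty-vector library.

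E2f1, an activator of S-phase genes, had 54.9 and 48.1 CPM with afatinib, 50.6 and 53.2 CPM with UO126, 59.8 and 58.2 CPM with DMSO, and 45.5 and 50.6 CPM in empty-vector cells. It rose by 0.30 with c-Fos (adjusted p = 0.011, not called without the first empty-vector library), and its inhibitor differences of -0.20 with afatinib (adjusted p = 0.070) and -0.18 with UO126 (adjusted p = 0.11) were not called. E2f2, a close relative, ran against the rest. It had 13.9 and 14.5 CPM with afatinib, 9.02 and 9.87 CPM with UO126, 10.5 and 9.09 CPM with DMSO, and 13.4 and 12.8 CPM in empty-vector cells. Its level was high with afatinib and in empty-vector cells and low in the other 2 groups. Afatinib lay 0.53 ± 0.11 above DMSO (adjusted p = 0.0017) and 0.59 ± 0.11 above UO126 (adjusted p = 0.0034), calls that held in all 15 other fits, and 0.11 ± 0.10 from the empty vector (adjusted p = 0.41). The c-Fos difference of -0.42 ± 0.11 was called (adjusted p = 0.0085), but not without the second DMSO or the first empty-vector library. E2f2 was among the lowest members per length, at 2.92 CPM per kb with afatinib, 1.95 CPM per kb with UO126, 2.02 CPM per kb with DMSO and 2.71 CPM per kb in empty-vector cells.

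**Figure D5:**
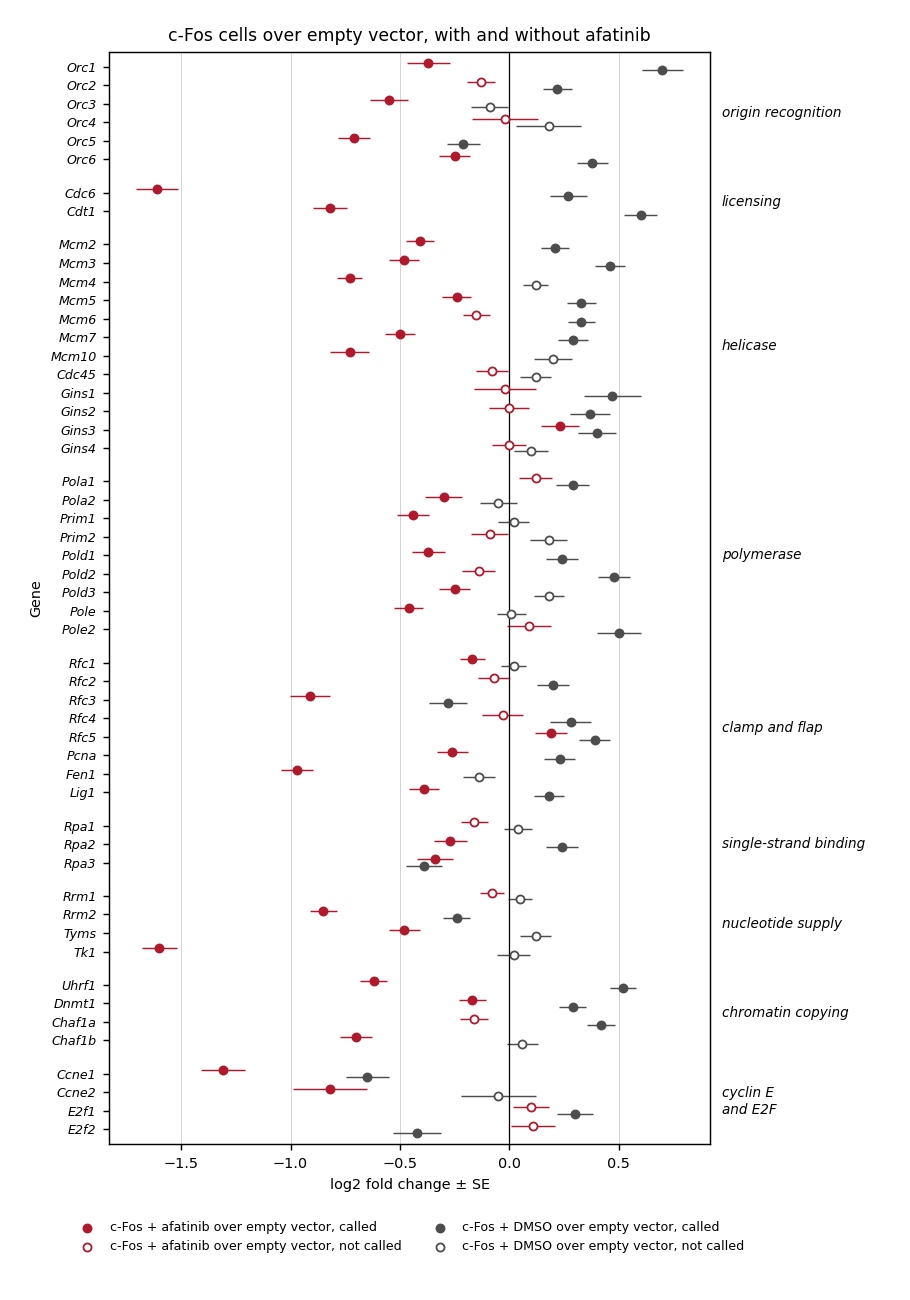
Log2 fold change over empty-vector cells, with its standard error as a bar, for c-Fos cells with afatinib (dark red) and with DMSO (grey), 2 libraries a group and the same empty-vector libraries in both. Filled points passed an adjusted p under 0.05; the DMSO points lie mostly right of 0, up to 0.70 for Orc1, and most afatinib points lie left of 0, down to -1.61 for Cdc6.

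Other genes of the same pathway were read from 6 lists of 86 genes that hold no member. With afatinib 59 were lower than with DMSO and 4 were higher, which is 68.6% and 4.65% against 21.5% and 21.2% of all genes, with a median log2 fold change of -0.33. With UO126 45 were lower and 2 were higher, which is 52.3% and 2.33% against 14.7% and 13.9% of all genes, with a median of -0.22. With c-Fos 26 were higher and 7 lower than in empty-vector cells, which is 30.2% and 8.14% against 21.5% and 20.7% of all genes, with a median of 0.08. The 26 numbered 14 without the second DMSO library and 16 without either empty-vector library, 16.3% and 18.6% of the 86, and the 7 numbered between 2 and 4 without any 1 of the 4 libraries compared. The 4 higher with afatinib numbered 8 without the first UO126 library and 7 without the second, and the 2 higher with UO126 numbered 6 without the second UO126 library and 1 without either DMSO library. Among 14 genes of origin firing and licensing control 11 were lower with afatinib. Cdc25a, the phosphatase that activates Cdk2, fell by 0.69 (adjusted p = 7.6e-06) and the origin-firing kinase Cdc7 by 0.56 (adjusted p = 6.8e-05). Among 17 fork accessory factors 12 were lower with afatinib, led by Dscc1, a subunit of an alternative clamp loader, at -0.84 ± 0.15 (adjusted p = 0.00041). Of 13 genes of nucleotide synthesis 10 were lower, led by Shmt1 at -0.96 ± 0.079 (adjusted p = 6.7e-07) and by Umps, of the pyrimidine route, at -0.91 ± 0.064 (adjusted p = 1.7e-07).

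Among 15 genes of fork repair and checkpoint 9 were lower with afatinib, where 21.5% of all genes were. Ung, Msh6 and Dtl fell more than most members. Ung, which removes uracil from DNA, had 22.7 and 21.6 CPM with afatinib, 25.3 and 28.6 CPM with UO126, 57.1 and 59.6 CPM with DMSO, and 46.6 and 47.9 CPM in empty-vector cells. Its change with afatinib was -1.40 ± 0.082 (adjusted p = 3.2e-08). Msh6, of mismatch repair, was at -1.12 ± 0.062 with afatinib (adjusted p = 2.1e-08), and Dtl, which targets Cdt1 for destruction in S phase, at -1.10 ± 0.073 (adjusted p = 9.2e-08). Of 9 histone chaperones and chromatin genes 7 were lower, led by the remodeller Hells at -0.96 ± 0.14 (adjusted p = 0.00077). Among 18 regulators of the E2F and pocket protein system 10 were lower and 3 were higher, against 21.5% and 21.2% of all genes. Cdk6, the cyclin D kinase, was at -0.85 ± 0.072 and E2f3 at -0.70 ± 0.070, while Rbl2, the pocket protein p130 that is known to hold E2F genes silent in resting cells, rose by 0.73 ± 0.075 (adjusted p = 4.9e-06). Rbl2 had 75.1 and 78.0 CPM with afatinib, 64.6 and 62.2 CPM with UO126, 48.5 and 43.8 CPM with DMSO, and 60.4 and 56.1 CPM in empty-vector cells. The DMSO libraries were lowest and the afatinib libraries highest, with no overlap between groups.

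Genes of mitosis were read from a list of 20. With afatinib 5 were higher and 2 lower than with DMSO, which is 25% and 10% against 21.2% and 21.5% of all genes, and the median was -0.01. The number lower was 0 without either afatinib library, without the second DMSO or without the second empty-vector library, and 8 were higher without either UO126 library. With UO126 5 were higher and 0 lower, with a median of 0.03, where 13.9% and 14.7% of all genes were called. Without the second DMSO library 3 were higher, and without the first UO126 library 2 were lower. With c-Fos 2 were higher and 3 lower than in empty-vector cells, against 21.5% and 20.7% of all genes, and none was higher without the second DMSO or the first empty-vector library. Cenpf, a kinetochore protein, had 436 and 485 CPM with afatinib, 419 and 388 CPM with UO126, 325 and 288 CPM with DMSO, and 419 and 388 CPM in empty-vector cells. It rose by 0.59 ± 0.076 with afatinib (adjusted p = 4.1e-05), and the spindle motor Kif11 rose by 0.54 ± 0.061 (adjusted p = 1.2e-05). Cell cycle phase was not measured in these files, and the part of any shift in phase in the changes of the replication genes was not tested.

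The non-member genes whose log2 CPM followed the mean of the members most closely over the 8 libraries were Ppan, Nop16, Msh6, Wdr5, Mettl16, Mettl13 and Csrp2. Pearson's r lay between 0.994 and 0.998, as a description over libraries that fall into 4 groups. Ppan, the closest, averaged 47.8 CPM with afatinib, 59.3 CPM with UO126, 96.0 CPM with DMSO and 74.2 CPM in empty-vector cells, which is the order of Cdt1 and Uhrf1.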

How the data were processed

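Per the labels' protocols, the TruSeq RNA kit was used, and its libraries carry no strand information. TopHat aligned the reads and HOMER counted them, per the design text of the series, and the submitters' processing notes also name DESeq2, with no role, and the build mm9, with no versions. The authors deposited expected counts, not normalized, in steps of 0.5, for 24909 entries, of which 26 with symbols turned into dates were left out (0.218% to 0.246% of a library). Counts were rounded. edgeR 4.0.16 in R 4.3.3 fitted all 8 libraries, with 1 coefficient per group, after filtering (minimum count 10, minimum total 15) and TMM scaling. The two-sided robust quasi-likelihood test was used with 4 residual degrees of freedom and a common biological coefficient of variation of 0.0596, with Benjamini-Hochberg adjustment over 12879 genes. Genes were called at an adjusted p under 0.05, and errors of log2 fold changes come from the F statistic. CPM uses the scaled library sizes, and CPM per kb the deposited transcript length. At these depths the lowest count of a member in a library was 159.5 (E2f2). The ribosomal precursor Rn45s took 1.63% to 4.09% of a library.

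Members and lists were chosen with earlier results of these data known. Named for values in each library were, in each role, the members with the largest and the smallest change with afatinib and those called against the direction of most. The values of Mcm4, Pcna, Pole2, Orc3 and Pole were given outside that rule. Other lists give the called genes with the largest changes, and genes like the members need at least 5 CPM in the highest group. Libraries of a group differed on average by 0.085 (afatinib), 0.11 (UO126), 0.075 (DMSO) and 0.069 (empty vector) in log2 CPM over the members. Promoters come from RefSeq and exon overlaps from GENCODE, both of GRCm38, with no coordinate of the deposited file used. The 15 other fits were DESeq2 size factors, the DESeq2 1.42.0 Wald test, no filter, a filter of 5 CPM in 2 libraries, only the compared libraries, a replicate block, Rn45s left out, and each library left out in turn. The code was checked on simulated counts with known changes. Depending on the comparison, 5.82% to 13.1% of the calls there were false, so calls at an adjusted p under 0.05 may be liberal. The highest shares were 13.1% for afatinib and 12.2% for UO126, both against empty vector. Of the simulated 1.5-fold changes 67.2% to 79.1% were recovered.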

Additional observations from a re-analysis of the deposited data

How the results depend on the processing

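In all 15 other fits, the calls that held were 33 of 45 for afatinib against DMSO, 26 of 37 for UO126 against DMSO, 7 of 15 for afatinib against UO126, 17 of 33 for c-Fos with DMSO, 21 of 34 for afatinib and 15 of 26 for UO126, the last 3 against empty vector. Calls that ended kept their sign, with adjusted p between 0.051 and 0.43 where they missed the threshold. The members lower with afatinib against UO126, 14 in all, numbered 7 at an adjusted p under 0.01 and 8 with only the compared libraries. The 27 higher with c-Fos numbered 16 at that stricter threshold, and the 6 lower numbered 3 with the DESeq2 Wald test. The 2 higher with afatinib against empty vector numbered 0 at the stricter threshold, with the DESeq2 Wald test, with no filter and with the replicate block. The causes were not tested, except that a stricter threshold calls fewer genes by construction.

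Leaving out 1 library at a time gave 33 to 46 members lower and 1 higher with afatinib against DMSO, 27 to 36 lower and 0 higher with UO126 against DMSO, and 6 to 16 lower and 1 higher with afatinib against UO126. It gave 18 to 32 higher and 2 to 6 lower with c-Fos, 24 to 32 lower and 0 to 2 higher with afatinib against empty vector, and 16 to 23 lower and 1 to 3 higher with UO126 against empty vector. A group left with 1 library was assumed to vary like the others. Orc4 with UO126 against empty vector was 0.01, and -0.23 without the first UO126 library (adjusted p = 0.041) and 0.27 without the second (adjusted p = 0.018).

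Libraries with the same replicate number showed little shared deviation, with correlations of their deviations between -0.21 and 0.12. With 2 libraries a group, this cannot exclude that the numbers pair libraries. With the number as a replicate block, calls ended for 2 members in afatinib against DMSO, 1 in UO126 against DMSO, 2 in afatinib against UO126, 3 with c-Fos, 4 in afatinib and 3 in UO126 against empty vector. With 2 libraries a group and 4 residual degrees of freedom, the smallest called change of a member was -0.17, for Rfc1 and Dnmt1 with afatinib against empty vector, and the largest uncalled were the -0.27 of Mcm10 and Rfc3 with afatinib against UO126.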

Other observations

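The members did not follow each other equally over the 8 libraries. Against the mean of the other members, Pearson's r of log2 CPM was 0.995 for Uhrf1, 0.990 for Mcm7, 0.989 for Mcm3 and 0.986 for Cdt1, and it was -0.51 for E2f2, 0.123 for Gins3, 0.153 for Rpa3 and 0.221 for Rfc5. These are descriptions over libraries that fall into 4 groups, and no test was made.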
